A study of Mus musculus with 90 samples.

Results

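CCR4-NOT is the main complex that shortens the poly(A) tails of messenger RNA in the cytoplasm. Its subunit genes Cnot1, Cnot2, Cnot3, Cnot4, Cnot6, Cnot6l, Cnot7, Cnot8, Cnot10 and Cnot11 were picked by symbol from the count table, and all 10 were found among its 24422 genes. They were followed in single mouse oocytes and embryos of the CD-1 strain, in 6 groups defined by genotype and stage. MII oocytes (unmated females), 2-cell (2c) embryos and 8-cell (8c) embryos came from wild-type (WT) females or from females without Plag1, a zinc finger transcription factor gene. The study used these groups to ask what the lack of maternal Plag1 does to gene expression around the start of embryonic transcription.

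All females were sexually mature and were superovulated with 5 IU pregnant mare serum and then 5 IU hCG. Oocytes were collected 21 to 23 h after hCG without culture. Embryos were cultured from the zygote and were picked at 45 to 47 h (2c) or 71 to 73 h (8c). The males were WT in every mating, so matPlag1KO embryos are heterozygous and carry a paternal Plag1 allele, while matPlag1KO oocytes have none. The knockout was present throughout the mother's body, so oocyte and maternal tract effects cannot be told apart. The labels do not name the donor females, and the p-values treat embryos that may share a mother as independent.

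Transcript 5′ ends were counted in 90 libraries, 1 per oocyte or embryo, prepared in 2 multiplexed pools, libA and libB (pools A and B here), that each held every group. Gene counts per library ran from 222357 to 2502421 in WT MII (16 libraries), from 7745 to 1772844 in matPlag1KO MII (16 libraries) and from 4432 to 194287 in WT 2c (14 libraries). They ran from 41889 to 256529 in matPlag1KO 2c (14 libraries), from 264386 to 696870 in WT 8c (15 libraries) and from 83 to 664771 in matPlag1KO 8c (15 libraries). Levels are given as CPM, counts scaled to the library's total over the tested genes times its TMM factor. The 12 libraries with a median below 1 CPM over detected genes, taken on the plain gene total, were left out. This left 16 WT and 14 matPlag1KO MII oocytes, 11 and 11 2c embryos, and 15 and 11 8c embryos. The median depth of the kept libraries was 395023 and 649899 counts at MII, 148473 and 163626 at 2c, and 564009 and 393914 at 8c, WT first. Of all genes, 16511 passed the filter of at least 1 CPM, also on the plain gene total, in at least 5 kept libraries, and all 10 members were among them.

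CNOT1 is the large scaffold protein on which the other subunits assemble. CNOT2 and CNOT3 form one module on it, CNOT10 and CNOT11 another, and the nuclease module joins 1 of the related exonucleases CNOT6 and CNOT6L to 1 of the related exonucleases CNOT7 and CNOT8. CNOT4 is a ubiquitin ligase that binds the complex. In oocytes the complex is known for shortening the tails of maternal messenger RNA during meiotic maturation and around fertilization, when most of the maternal RNA is removed and the embryo's own transcription begins.

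Plag1 itself was counted first, as a check of the genotype labels. In WT oocytes Plag1 ranged from 2.32 to 143 CPM with a median of 24.3 and had 326 counts, at least 1 in 16 of 16 libraries. In matPlag1KO oocytes it had 4 counts in 3 of 14 libraries, with a highest value of 3.28 CPM and a pooled ratio to WT of 0.0112 (95% counting interval 0.00305 to 0.0291). At 2c the count went the other way. WT 2c embryos had 1 Plag1 count in 1 of 11 libraries, and 2c embryos labelled matPlag1KO had 91 counts in 9 of 11, from 0 to 90.2 CPM with a median of 35.7. The log2 difference at 2c was 5.59 (SE 0.94, adjusted p = 0.000127), higher in 9 of 11 libraries than in every WT library. At 8c both groups were near 0, with 10 counts in 5 of 15 WT libraries and 6 in 4 of 11 matPlag1KO libraries. The maternal allele is absent from these matPlag1KO embryos by their labels, and Plag1 transcripts of the maternal and the paternal allele cannot be told apart in these counts. Plag1 counts thus checked the label in oocytes but could not do so at 2c or 8c.

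Marker genes were read against the stage labels. The 8 oocyte genes summed to a mean of 10500 CPM in oocytes, 3450 in 2c embryos and 134 in 8c embryos of WT, and to 14400, 4840 and 119 CPM in matPlag1KO. Oosp1 was the most abundant of them at MII and 2c, and Gdf9 at 8c. The 2-cell genes, 6 of 7 listed, summed to 326 CPM in WT and 562 in matPlag1KO 2c embryos, mostly Zfp352, and to at most 8.61 in any other group. Tcstv1 and Tcstv3 of that list were at 0 in all 6 groups. The 6 genes listed for the 8-cell stage summed to 669, 319 and 1740 CPM in WT at MII, 2c and 8c, and to 578, 417 and 924 in matPlag1KO, mostly Pou5f1, which oocytes also contain. They included Krt8, at 0 in WT 2c, and Krt18 and Cdx2, both at 0 in WT MII. Of 16 genes listed for cumulus and granulosa cells, 7 to 11 were at 0 in each group. Their sum was 8.93 and 12.3 CPM at MII, mostly Runx2, then 57.4 and 60.1 at 2c and 677 and 521 at 8c, mostly Gja1, a gap junction gene that cleavage-stage embryos also express. Ptx3, a defining cumulus gene, was at 0 in every group.

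The most abundant members in WT oocytes were Cnot3 with a mean of 798 CPM ± 341 (SD, n = 16), Cnot4 with 728 ± 306 and Cnot7 with 541 ± 224. A 5′ end count does not grow with transcript length, but whether genes are captured equally well from their poly(A) tails was not tested, so this is an order of counts. Cnot6l followed at 137 ± 41, then Cnot2 at 120 ± 84, Cnot8 at 83.4 ± 38.6, Cnot1 at 73 ± 57 and Cnot10 at 35.4 ± 25.3. Cnot11 (8.39 ± 8.83) and Cnot6 (5.47 ± 4.81) were last. Neighbours in this order differed by less than the larger of their SDs, except for the steps from Cnot7 to Cnot6l and from Cnot10 to Cnot11. matPlag1KO oocytes had the same first 5 and the same last 3 members in the same order.

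In WT 2c embryos Cnot7 (166 CPM ± 127, SD, n = 11), Cnot1 (151 ± 98.5), Cnot3 (150 ± 68.1) and Cnot8 (148 ± 38.4) came first and did not differ beyond their spread. Cnot11 had 0 counts in the 11 WT 2c libraries, and Cnot6 had 3. In WT 8c embryos Cnot1 (140 ± 53.2, SD, n = 15) and Cnot3 (137 ± 105) were at the top, and Cnot6 (5.82 ± 6.04), Cnot6l (5.72 ± 4.8) and Cnot11 (4.68 ± 3) at the bottom. Cnot7 ranked 6 of 10 in WT 8c and 7 of 10 in matPlag1KO 8c, after being first at 2c in both genotypes. The 10 members together made up a mean of 2530 CPM in WT oocytes, 869 at 2c and 624 at 8c, and 2700, 1010 and 673 CPM in matPlag1KO.

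**Figure D1:**
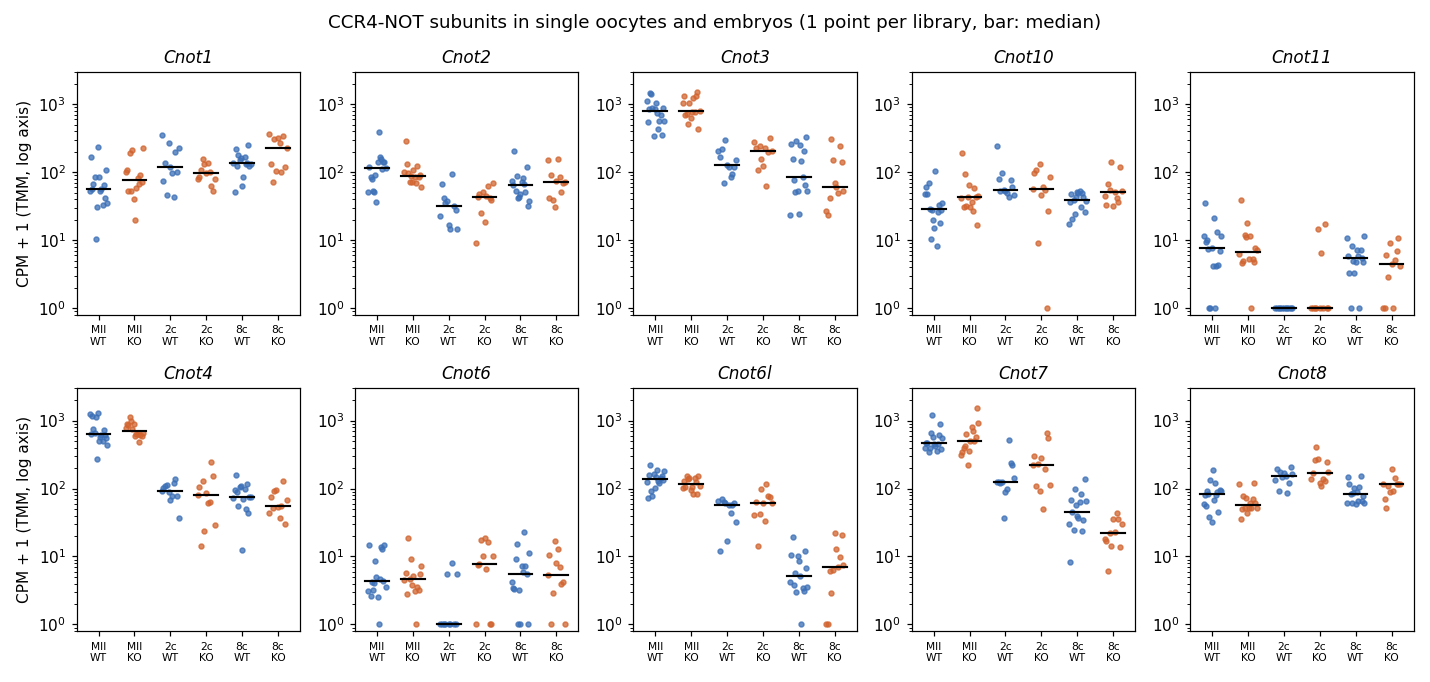
Level of each of the 10 members in CPM (log axis) in every kept library of the 6 groups, 1 point per oocyte or embryo. Cnot3, Cnot4 and Cnot7 lie highest in oocytes, and Cnot6 and Cnot11 lie lowest at MII and 2c. At 8c Cnot6l has come down close to them.

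Within the summed counts of the members, Cnot3 took a mean of 30.8%, Cnot4 28.1% and Cnot7 22.2% in WT oocytes, and Cnot1 only 2.86%. In WT 2c embryos Cnot1 took 16.8%, Cnot8 18%, Cnot3 17.3% and Cnot7 18.8%. In WT 8c embryos Cnot1 took 23.2%, Cnot3 20%, Cnot8 14.5% and Cnot7 8.71%. The matPlag1KO means were 33.6% for Cnot3, 28.2% for Cnot4 and 21.6% for Cnot7 at MII, and 30.6% for Cnot1, 16.7% for Cnot8 and 3.42% for Cnot7 at 8c. The scaffold transcript went from a minor to the largest share of the set in both genotypes, with no test made on these shares.

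**Figure D2:**
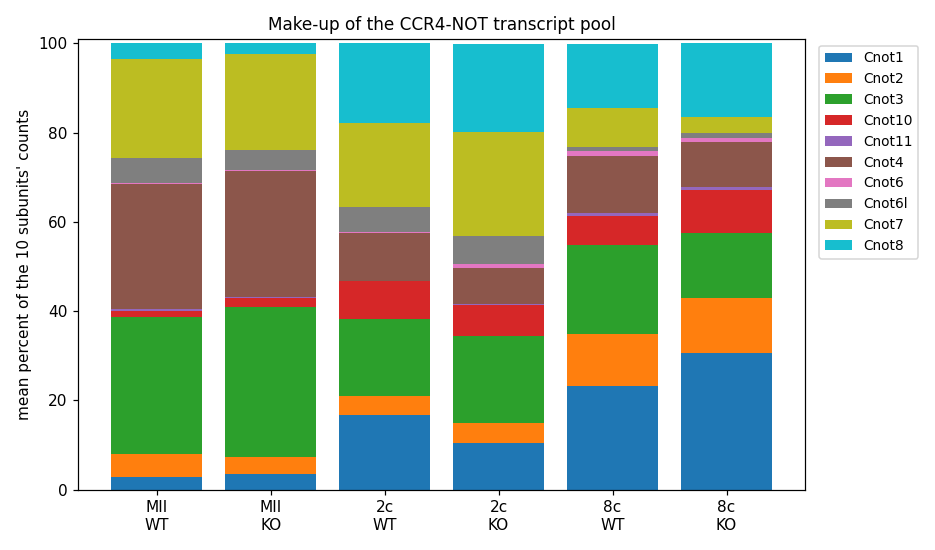
Mean share of each member in the summed counts of the 10 members, in percent, for the 6 groups (KO stands for matPlag1KO). Cnot3, Cnot4 and Cnot7 fill most of the oocyte bars, and Cnot1 has the largest part of the 8c bars.

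The nuclease genes occur as the pairs Cnot6 with Cnot6l and Cnot7 with Cnot8, which took different courses over the stages. Promoter sequences from RefSeq (GRCm38.p6, 250 bases before to 50 after a transcript start) were found for 8 of the 10 members. Cnot1 and Cnot7 have no entry. The promoters were searched on both strands for the PLAG1 consensus motif. It was present in at least 1 entry of 4 of the 8 members (Cnot4, Cnot6l, Cnot8 and Cnot11), and in 5729 of 27025 genes (21.2%) and 6303 of 32851 promoters (19.2%) in the whole table. The 3 sequences shown are of nuclease genes whose counts are described next, and matches are in capitals. They are Cnot6 (chr11:49712673-49712972, minus strand, no match), the most upstream entry of Cnot6l (chr5:96161941-96162240, minus strand) and the entry of Cnot8 at chr11:58103720-58104019 (plus strand). The other entries of Cnot6l and the most upstream entry of Cnot8 have no match.
Cnot6: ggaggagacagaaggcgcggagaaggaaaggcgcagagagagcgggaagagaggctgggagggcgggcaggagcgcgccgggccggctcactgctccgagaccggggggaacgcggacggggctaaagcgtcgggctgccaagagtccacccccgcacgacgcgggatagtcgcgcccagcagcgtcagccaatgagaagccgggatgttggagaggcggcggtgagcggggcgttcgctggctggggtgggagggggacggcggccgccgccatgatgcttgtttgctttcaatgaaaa
Cnot6l: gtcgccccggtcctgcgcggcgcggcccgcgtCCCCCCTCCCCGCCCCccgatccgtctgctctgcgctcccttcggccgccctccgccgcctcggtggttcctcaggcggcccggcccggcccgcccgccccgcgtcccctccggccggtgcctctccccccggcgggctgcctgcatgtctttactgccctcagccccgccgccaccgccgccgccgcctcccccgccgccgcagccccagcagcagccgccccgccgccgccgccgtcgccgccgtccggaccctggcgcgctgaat
Cnot8: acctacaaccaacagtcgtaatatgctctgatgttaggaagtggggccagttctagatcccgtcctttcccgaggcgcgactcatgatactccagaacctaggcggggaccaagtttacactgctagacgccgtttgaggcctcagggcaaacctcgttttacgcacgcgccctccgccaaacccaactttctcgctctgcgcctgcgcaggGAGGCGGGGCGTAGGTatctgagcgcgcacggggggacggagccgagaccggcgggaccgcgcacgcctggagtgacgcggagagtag
The Cnot6 and Cnot6l windows were 68.7% and 82.7% G and C, and the Cnot8 window 61.7%. A match is a description of letters, and binding of PLAG1 to these windows was not measured.

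Changes between stages were measured against the added spike-in RNA, and levels are given as counts per 1000 spike-in counts. Such a value is per oocyte or whole embryo, so more cells and more RNA per cell cannot be told apart in it. Reverse transcription started from the poly(A) tail, so the number of transcripts and the length of their tails cannot be told apart either. From MII to 2c in WT, 7 of 10 members fell and 0 rose in edgeR at an adjusted p under 0.05, where 51.3% of all tested genes fell and 14.1% rose. No member rose at an unadjusted p under 0.05 or in DESeq2. The median log2 change of the members was -3.09, beside -1.46 over all genes tested (-1.26 with genes at 0 in a group set to their bound). The median over all genes was -2.17 in pool A alone and -0.67 in pool B alone.

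The scaling decides part of this count. When libraries were instead scaled to their gene counts (TMM), the median of all genes from MII to 2c in WT moved to -0.03, and 3 members rose and 6 fell, where 27.5% of all genes rose and 23.1% fell. Relative to other transcripts Cnot1, Cnot8 and Cnot10 were thus called higher (1.03, 0.83 and 1.12 on the log2 scale), while against spike-in RNA none of these 3 passed the threshold in WT. Cnot8 did pass it there, as lower, with every library kept (-0.86, adjusted p = 0.0403) and in DESeq2 (-0.75, adjusted p = 0.0329).

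Cnot2, Cnot3 and Cnot4 fell in WT by both scalings. Cnot3 ranged from 7.43 to 319 with a median of 29.4 counts per 1000 spike-in counts in WT oocytes, and from 1.29 to 6.11 with a median of 2.54 at 2c. No 2c embryo reached the lowest oocyte, and the log2 change was -4.33 (SE 0.54, adjusted p = 7.01e-11, lower in 11 of 11 embryos). Cnot2, the partner of Cnot3 in its module, went from a median of 5.11 (1.8 to 12.6) to 0.598 (0.239 to 1.4), again without overlap (-3.12, SE 0.4, adjusted p = 2.04e-10). Cnot4 went from a median of 29.6 (5.93 to 146) to 1.79 (0.958 to 2.63), also without overlap. Its log2 change was -4.72 (SE 0.44, adjusted p = 5.24e-16), the largest fall of the 9 members that kept counts at 2c. Within pools A and B alone the changes were -4.92 and -3.23 for Cnot3, -2.79 and -3.38 for Cnot2, and -5.2 and -3.72 for Cnot4, all called.

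The scaffold gene Cnot1 had a median of 2.63 (0.338 to 18.5) in WT oocytes and 2.37 (0.647 to 7.1) in WT 2c embryos. These ranges overlapped throughout, and the log2 change of -0.68 (SE 0.43) had an adjusted p of 0.152. Cnot10 had a median of 1.34 in WT oocytes and 1.2 in WT 2c embryos (-0.52, SE 0.43, adjusted p = 0.29). Its partner Cnot11 went from 84 counts over the WT oocytes to 0 over the WT 2c embryos, at least 18.1-fold lower with the floor of 3 counts over the group, and was lower in 11 of 11 embryos than the oocyte median (adjusted p = 2.8e-07).

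Of the nuclease genes, Cnot7 had a median of 24.9 (11.6 to 89) in WT oocytes and 2.44 (0.752 to 7.76) in WT 2c embryos. The groups did not overlap (-3.2, SE 0.42, adjusted p = 3.38e-10). Cnot6l went from a median of 6.44 (2.7 to 22.7) to 1.08 (0.182 to 1.31), also without overlap (-3.06, SE 0.41, adjusted p = 8.03e-10). In pools A and B alone the changes were -4.03 and -2.46 for Cnot7 and -3.33 and -2.66 for Cnot6l, all called. Cnot6 had 43 counts in WT oocytes and 3 in WT 2c embryos, a ratio of 0.108 (95% counting interval 0.0214 to 0.337, adjusted p = 0.000408). The call of Cnot6 was lost with TMM (adjusted p = 0.0751) and in pool B alone (adjusted p = 0.062), with 0.000286 to 0.0751 over 7 alternatives. Cnot8, the relative of Cnot7, had medians of 3.37 and 3.01, with overlapping ranges (-0.74, SE 0.35, adjusted p = 0.0554), and was called in 3 of 7 alternatives, 2 lower and 1 higher (TMM).

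The second step, from 2c to 8c in WT, had 3 members higher and 1 lower, where 31.9% of all genes rose and 16.2% fell. The median log2 change of the members was 0.76, beside 0.53 over all genes (0.27 at the bound). With TMM, which moved the median of all genes to -0.12, 3 members rose and 4 fell, where 21.0% and 28.9% of all genes did. Cnot2 rose from a median of 0.598 to 1.84 counts per 1000 spike-in counts (1.96, SE 0.39, adjusted p = 1.54e-05), above the 2c median in 15 of 15 embryos. Cnot6 rose from 3 to 36 counts, a ratio of 7.26 (95% counting interval 2.29 to 36.8, adjusted p = 0.00244), and Cnot11 from 0 to 29 counts, at least 5.85-fold higher (adjusted p = 0.000191, above 0 in 13 of 15 embryos). Cnot6l fell from a median of 1.08 to 0.176 (0 to 0.634), with 15 of 15 embryos below the 2c median (-2.1, SE 0.41, adjusted p = 1.22e-05). The ranges of Cnot2 and Cnot6l at the 2 stages overlapped. Within pools A and B alone the changes were 1.92 and 1.95 for Cnot2 and -1.91 and -2.34 for Cnot6l, all called. Cnot6 was not called in pool B alone (adjusted p = 0.0515) or with every library kept (1.28, adjusted p = 0.0893, and 0.00222 to 0.0893 over 7 alternatives), and Cnot11 not in pool A alone (adjusted p = 0.058, and 9.49e-05 to 0.058 over 7). Cnot7 and Cnot10, not called against spike-in RNA, were lower with TMM (-1.61 and -1.07), and Cnot8 turned from 0.14 to -0.74 and was called.

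Over both steps, from MII to 8c in WT, 0 members were higher and 6 lower, where 27.1% of all genes were higher and 43.6% lower. No member was higher by DESeq2 or at an unadjusted p under 0.05. The members' median was -1.34 beside -0.67 over all genes (-0.56 at the bound), and TMM gave 1 member higher and 5 lower, where 36.0% of all genes were higher and 36.3% lower. Cnot6l had the largest change among the 10 members (-5.16, SE 0.41, adjusted p = 2.76e-20), followed by Cnot4 (-3.95), Cnot7 (-3.79) and Cnot3 (-3.47). Cnot1 had a log2 change of 0.06 (SE 0.38, adjusted p = 0.899) against spike-in RNA, and of 0.92 by TMM, where it was the 1 member called higher. In pool B alone Cnot1 was also called higher against spike-in RNA (1.07, adjusted p = 0.0414), and the median of all genes over both steps was -1.28 in pool A alone and 0.04 in pool B alone.

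Of the members in matPlag1KO, 0 rose and 8 fell at the first step, where 13.5% of all genes rose and 50.3% fell, and TMM had 1 higher and 5 lower, where 29.1% and 19.3% of all genes were. At the second step 2 members rose and 2 fell, where 29.1% and 19.5% of all genes did, and TMM had 2 higher and 4 lower, where 21.2% and 30.3% of all genes were. From MII to 8c 0 were higher and 7 lower, where 24.1% of all genes were higher and 45.2% lower, and TMM had 2 higher and 4 lower, where 34.6% and 34.0% of all genes were. No member rose from MII to 2c or from MII to 8c at an unadjusted p under 0.05 in edgeR, or in DESeq2. The medians of the members at these 3 steps were -2.75, 0.29 and -1.91, beside -1.42, 0.3 and -0.95 over all genes (-1.3, 0.09 and -0.76 at the bound).

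Cnot1 fell from MII to 2c in matPlag1KO (-1.92, SE 0.46, adjusted p = 0.000196) against spike-in RNA, but its log2 change was 0.00 by TMM. Cnot10 fell likewise (-1.74, SE 0.46, adjusted p = 0.000703), and TMM gave 0.16. Cnot7 fell in matPlag1KO between 2c and 8c, from a median of 3.37 (0.918 to 18.2) to 0.845 (0.125 to 2.24) counts per 1000 spike-in counts (-2.76, SE 0.44, adjusted p = 1.31e-07), with -2.74 in pool A alone and -2.63 in pool B alone. The WT change of Cnot7 over this step was -0.59 (SE 0.38, adjusted p = 0.196). The test of the difference between genotypes at these stages is given with the genotype results.

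**Figure D3:**
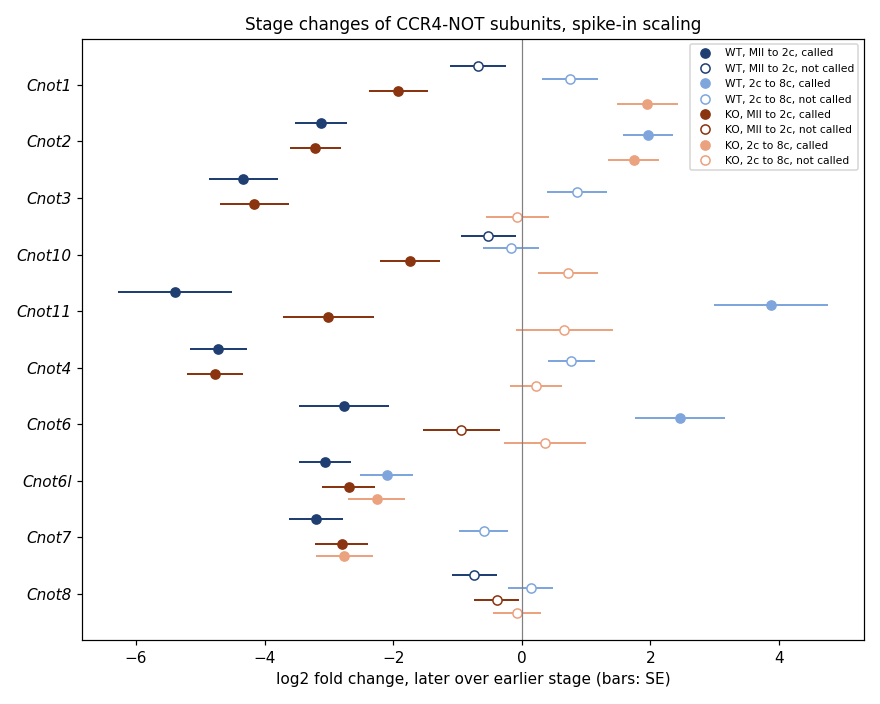
Log2 change of each member over the first step (MII to 2c) and the second (2c to 8c) in WT and matPlag1KO (KO), against spike-in RNA, with the standard error derived from the edgeR test. Fitted values of Cnot11 in WT rest on a group at 0 counts and are no bounds. Most members lie below 0 in the first step, Cnot1, Cnot8 and Cnot10 lie nearest to 0 in WT, and those 3 turn positive in WT with TMM scaling.

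A share within a pair of relatives needs no library size, so it does not depend on the scaling. Cnot6l made up a mean of 95.7% of the Cnot6l and Cnot6 counts in WT oocytes (83.8 to 100, median 97.4, n = 16) and 96.2% in WT 2c embryos (85.7 to 100, median 100, n = 9 with at least 5 counts). In WT 8c embryos it made up 51.9% (10 to 88.9, median 55.7, n = 8). The 8c embryos were spread over most of the scale, and 1 of 8 (88.9%) lay within the 2c range. All 15 kept WT 8c libraries together held only 36 Cnot6l and 36 Cnot6 counts. How much of this spread is counting error was not tested. The share changed by -44.3 percentage points over this step (exact permutation test, two-sided, adjusted p = 0.000494 over 18 tests of shares).

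In matPlag1KO the Cnot6l share was 96.5% at MII (n = 14), 89.1% at 2c (71.4 to 100, median 89.4, n = 10) and 57.1% at 8c (25 to 85.7, median 50, n = 5). All 11 kept matPlag1KO 8c libraries together held only 29 Cnot6l and 23 Cnot6 counts. Its change was -7.36 points from MII to 2c (permutation test, adjusted p = 0.0186) and -32 from 2c to 8c (exact permutation test, adjusted p = 0.0108). Between genotypes at 2c the share differed by -7.12 points (exact permutation test, adjusted p = 0.11), and at 8c by 5.23 (exact permutation test, adjusted p = 0.791). The pool means were 100% (A) and 94.3% (B) in WT 2c, 88.3% and 89.6% in matPlag1KO 2c, 68.5% and 35.4% in WT 8c and 50% and 61.9% in matPlag1KO 8c. The MII to 2c change in matPlag1KO was not called within either pool alone, the WT change from 2c to 8c was not called in pool A, and the matPlag1KO change from 2c to 8c was not called in pool B.

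Cnot7 made up 85.6% of the Cnot7 and Cnot8 counts in WT oocytes (71 to 95.4, median 86.1, n = 16) and 48.2% in WT 2c embryos (20 to 85.7, median 47.1, n = 11). The highest 2c embryo lay within the oocyte range, and the other 10 lay below it. The change was -37.4 points (permutation test, adjusted p = 0.00012). In WT 8c embryos the share was 36.7% (4.62 to 64.3, median 35.7, n = 15), and the change from 2c was -11.5 points (adjusted p = 0.119).

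In matPlag1KO the Cnot7 share was 88.1% at MII (73 to 96.2, median 90, n = 14), 51.7% at 2c (25.6 to 83.9, median 58.1, n = 11) and 16.4% at 8c (9.09 to 23.1, median 16.4, n = 11). The 8c embryos all lay below every 2c embryo. The change from 2c to 8c was -35.3 points (permutation test, p = 2e-05, the smallest its 100000 resamples can give, adjusted p = 7.2e-05). At 8c the share was 20.3 points lower in matPlag1KO than in WT by a permutation test (p = 0.00022, adjusted p = 0.000494), with means of 32.3% (WT) and 14.2% (matPlag1KO) in pool A, and of 40.6% (WT) and 19.1% (matPlag1KO) in pool B. The matPlag1KO embryos lay inside the WT range, toward its low end. At MII and 2c the genotypes differed by 2.45 and 3.53 points (adjusted p = 0.441 and 0.747). The difference between 2c and 8c in the genotype effect on the share was not tested.

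**Figure D4:**
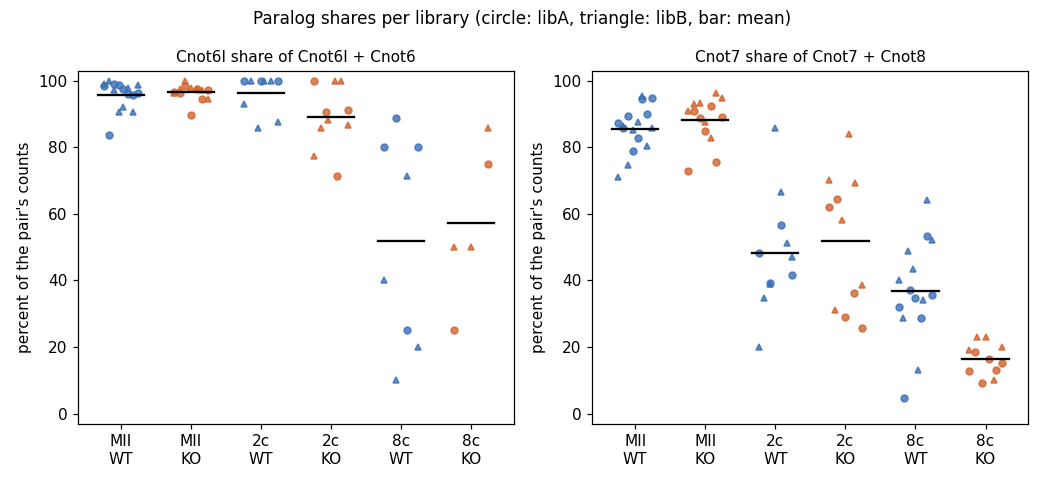
Share of Cnot6l in the Cnot6l and Cnot6 counts, and of Cnot7 in the Cnot7 and Cnot8 counts, in percent, 1 point per library with at least 5 counts over the pair, by group (KO stands for matPlag1KO). The Cnot6l share is near 100% in oocytes and WT 2c embryos, lower in part of the matPlag1KO 2c embryos and spread out at 8c, and the Cnot7 share falls at 2c and lies lowest in matPlag1KO 8c embryos. At 8c the Cnot6l share rests on few counts per library.

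Between genotypes, 0 of 10 members were called at MII by edgeR, where 0.781% of all genes were called, 0 at an unadjusted p under 0.05 and 0 by DESeq2. The log2 differences (matPlag1KO over WT) ran from -0.36 for Cnot8 to 0.58 for Cnot10. With position as a replicate block and pool as a term, described at the end, 639 of 12978 genes were higher and 153 lower. Without the block the same libraries gave 15 and 19, and both fits called 0 members. At 2c, 0 were called by edgeR, where 4.92% of all genes were, 2 (Cnot6 and Cnot11) had an unadjusted p under 0.05, and DESeq2 called 1 (Cnot6). At 8c, 0 were called by edgeR, where 1.74% of all genes were, and 1 (Cnot7) both had an unadjusted p under 0.05 and was called by DESeq2. Of the 16511 genes, 1690 had an unadjusted p under 0.05 at MII, 3380 at 2c and 2363 at 8c, and DESeq2 called 733 higher and 401 lower at 2c and 267 and 81 at 8c. The median log2 difference of the members was 0.06 at MII, 0.37 at 2c and 0.06 at 8c, beside 0, 0.12 and 0 over all genes. With spike-in totals as library sizes edgeR called fewer genes, 191 higher and 94 lower at 2c and 91 and 15 at 8c. It called 0 members at either stage.

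The members named at 2c had very few counts. Cnot6 had 3 counts in 3 of 11 WT 2c libraries (0 to 7.07 CPM, median 0) and 19 in 8 of 11 libraries labelled matPlag1KO (0 to 17.7 CPM, median 6.69). The groups overlapped, 5 of the 11 matPlag1KO libraries lay above every WT library, and the pooled ratio was 5.41 (95% counting interval 1.59 to 28.6). The edgeR difference was 2.23 (SE 0.8, adjusted p = 0.0806, and 0.043 to 0.596 over 9 alternatives). Cnot11 had 0 counts in WT 2c libraries and 8 in 3 of 11 labelled matPlag1KO, at least 2.28-fold higher with the floor of 3 counts over the group (adjusted p = 0.0578, and 0.0417 to 0.624 over 8 alternatives). Whether either was called depended on single libraries. Without the WT 2c library libB.C5 Cnot6 had an adjusted p of 0.0492, and without the matPlag1KO 2c library libA.D6 Cnot11 had 0.0435.

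Cnot7 ranged at 8c from 7.16 to 138 CPM in WT with a median of 44.3, and from 5.04 to 42.6 in matPlag1KO with a median of 21. All 11 matPlag1KO embryos lay below the WT median, inside the WT range except for 1 below it. The log2 difference was -1.21 (SE 0.35) with an adjusted p of 0.0518, which misses the threshold. In pool A the mean was 46.4 CPM in WT and 17.9 in matPlag1KO. The pool B means were 59.5 and 28.2. Over 9 alternatives the difference ran from -1.37 to -1.06 and the adjusted p from 0.0404 to 0.43, and 3 of them called it. The other relative of the pair, Cnot8, differed by 0.32 (SE 0.25, adjusted p = 0.603) at 8c.

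At 2c Cnot7 pointed the other way. It ranged from 36.5 to 509 CPM in WT with a median of 124, and from 49.1 to 661 in 2c embryos labelled matPlag1KO with a median of 223. The groups overlapped (0.64, SE 0.35, adjusted p = 0.282), and 7 of 11 embryos labelled matPlag1KO lay above the WT median. With 1 library left out this 2c difference ran from 0.38 to 0.96 and was called in 0 of 48 fits. The difference of the genotype difference between 2c and 8c was 1.85 (SE 0.49, adjusted p = 0.0258). Cnot7 was the 1 member called in this test by edgeR and 1 was called by DESeq2, where 2.30% of all genes were called. With spike-in totals as library sizes Cnot7 was again the 1 member called, with 61 genes higher and 31 lower of 16511. Cnot7 was not called within pool A alone (1.95, adjusted p = 0.406) or pool B alone (1.73, adjusted p = 0.171), and the adjusted p ran from 0.00433 to 0.406 over 8 alternatives. It was also lost without the matPlag1KO 2c library libB.D6 (0.0582) or libB.D7 (0.052), or the WT 8c library libB.F3 (0.0517).

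The same test between 2c and MII called 0 members by edgeR, where 3.31% of all genes were called, with 4 at an unadjusted p under 0.05 (2923 of 16511 genes) and 1 by DESeq2 (Cnot8, with 464 genes higher and 266 lower). The 4 were Cnot1 (-1.03, SE 0.47, adjusted p = 0.22), Cnot6, Cnot8 (0.76, SE 0.36, adjusted p = 0.239) and Cnot11. The scaffold gene Cnot1 at 2c had a median of 120 CPM in WT and 95.3 in embryos labelled matPlag1KO (-0.63, SE 0.36, adjusted p = 0.312), and 134 and 230 CPM at 8c (0.61, SE 0.32, adjusted p = 0.367). Its ranges overlapped at both stages. Scaling to spike-in RNA moved the median difference of all genes between genotypes to 0.30 at MII and 0.28 at 2c.

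**Figure D5:**
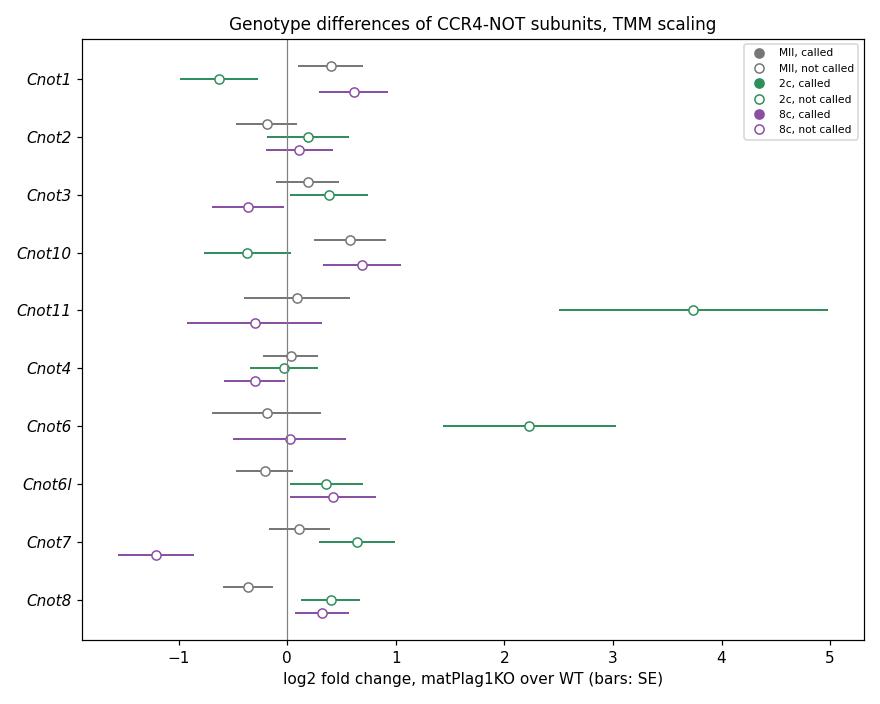
Log2 difference of each member between matPlag1KO and WT (positive is higher in matPlag1KO) at MII, 2c and 8c, with the standard error derived from the edgeR test on TMM-scaled counts. No member is called at any stage, Cnot7 at 8c is nearest to the threshold, and the fitted value of Cnot11 at 2c rests on a WT group at 0 counts.

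Partners of the complex and the enzymes that act before or after it were read from 7 further gene lists, with 90 tested genes in all. At MII 0 of the 90 differed between genotypes by edgeR, 9 had an unadjusted p under 0.05 (1690 of all 16511 genes), and DESeq2 called 0. At 2c 4 were higher and 3 lower in embryos labelled matPlag1KO, by edgeR and also in number by DESeq2, and at 8c 4 were higher and 0 lower by both. Of all genes 4.92% were called at 2c and 1.74% at 8c. In pool A alone edgeR called 0 of 15073 genes at 2c, so no 2c call of a list gene was kept there, and in pool B alone it called 150 higher and 352 lower of 15161. Every one of these 2c calls was also lost in edgeR with spike-in totals as library sizes (adjusted p from 0.06 to 0.128). The log2 differences kept their direction there. The WT stage changes of the lists are called the first step (oocyte to 2c) and the second step (2c to 8c). At the first step 9 list genes rose and 53 fell against spike-in RNA, and 30 rose and 23 fell with TMM. Of all genes 14.1% rose and 51.3% fell at this step, and 27.5% and 23.1% with TMM. At the second step 34 rose and 18 fell, and 23 rose and 33 fell with TMM. Of all genes 31.9% rose and 16.2% fell there, and 21.0% and 28.9% with TMM. The all-gene median was -1.46 and then 0.53 against spike-in RNA, and these all-gene values apply to each list that follows. No list gene named for a stage change turned its direction with TMM, but some lost their call there or in 1 pool alone.

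Both further subunits, Rqcd1 (also named Cnot9) and Tnks1bp1, fell at the first step (-2.37, adjusted p = 0.000122, and -3.33, adjusted p = 8.33e-05), though neither was called with TMM. Rqcd1 then rose at the second (2.2, adjusted p = 0.000509). Rqcd1 also lost its first call in pool B alone (-0.57, adjusted p = 0.414). Neither differed between genotypes by edgeR at 2c, with 0 at an unadjusted p under 0.05 and 0 by DESeq2.

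Of the 20 tested adaptors that bring transcripts to the complex, 12 fell and 3 rose at the first step (median -2.12), and 6 and 6 with TMM, where 23.1% of all genes fell and 27.5% rose. Btg4, the oocyte adaptor that binds CNOT7 and CNOT8, had a mean of 3200 CPM in WT oocytes and fell by 3.31 on the log2 scale to 2c and by a further 4.99 to 8c. Dazl (-4.68), Nanos2 (-4.69) and Cpeb1 (-5.44) fell as well, and these 3 proteins bind RNA in germ cells. At the second step 7 rose and 4 fell (3 and 7 with TMM), among them Zfp36, which binds AU-rich elements (3.73, adjusted p = 2.7e-08), Dazl (-2.89) and Nanos2 (-2.53). At 2c 2 were higher and 1 lower in embryos labelled matPlag1KO. Zfp36l1 had 1 count in WT and 35 in 6 of 11 matPlag1KO libraries (4.17, SE 1.23, adjusted p = 0.0327, with a matPlag1KO median of 4.06 CPM and a highest value of 91.8), Samd4 had 0 and 9 counts (at least 2.56-fold higher, adjusted p = 0.0425), and Btg1 had 48 and 13 (-2.06, SE 0.64, adjusted p = 0.0427). Of 9 alternatives 7 kept the call of Zfp36l1 and 5 that of Btg1, and 5 of 8 lost that of Samd4. Without the matPlag1KO 2c library libB.D2 the difference of Zfp36l1 was 2.71 (adjusted p = 0.242). At 8c Nanos2 was the 1 adaptor called (2.96, SE 0.51, adjusted p = 0.000163), with 17 counts in WT (0 to 9.55 CPM, median 2.26) and 80 in matPlag1KO (0 to 108, median 6.5). Its call held in 48 of 48 fits with 1 library left out and was lost in pool A alone (adjusted p = 0.0736).

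Among the 9 genes listed as other deadenylases 4 fell and 1 rose at the first step (median -1, beside -1.46 over all genes), and with TMM 2 fell and 3 rose. Whether each of the 9 encodes an active deadenylase was not tested. Pan2, the catalytic subunit of the PAN2-PAN3 deadenylase, fell by 3.11, Angel1 by 3.37, Angel2 by 2.05 and Noct by 2.46 on the log2 scale. With TMM Angel2 (-0.56, adjusted p = 0.134) and Noct (-0.33, adjusted p = 0.484) were not called, and Noct was not called in pool B alone either. The second step had 2 higher (Toe1, 3.54, and Noct, 1.86) and 2 lower (Angel2, -4.46, and Angel1, -1.94), and with TMM 1 higher and 5 lower. Noct lost this call with TMM (adjusted p = 0.069) and in pool A alone, and Angel1 in pool B alone (adjusted p = 0.192). Angel1 was higher at 2c in embryos labelled matPlag1KO (1.66, SE 0.51, adjusted p = 0.0427, and called in 6 of 9 alternatives), with 457 counts in 11 of 11 libraries beside 110 in 9 of 11 in WT. With 1 library left out its difference ran from 1.22 (without the matPlag1KO 2c library libB.D2, adjusted p = 0.166) to 2.14. It was 0.62 in pool A alone (adjusted p = 0.826) and 2.39 in pool B alone (adjusted p = 0.0122).

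Of 21 decapping and 5′ to 3′ decay genes, 17 fell and 2 rose at the first step (median -2.37), where 51.3% of all genes fell and 14.1% rose. With TMM 8 fell and 4 rose, where 23.1% and 27.5% of all genes did. The decapping factors Edc4 (-5.34) and Dcp1a (-5.24), Eif4enif1, which encodes the eIF4E transporter (-2.98), and the nuclease gene Xrn2 (-2.85) were named by lowest adjusted p. By 8c 9 rose, among them the LSM ring genes Lsm5 (6) and Lsm7 (2.42), and 5 fell, among them Lsm14a (-3.32) and Eif4enif1 (-2.8), and TMM had 6 and 6. At 2c 0 differed between genotypes by edgeR, with 3 at an unadjusted p under 0.05 and 1 by DESeq2. At 8c Lsm1 was higher in matPlag1KO (1.44, SE 0.24, adjusted p = 0.000136), with medians of 65 (WT) and 211 CPM, though not called in pool A alone (1.24, adjusted p = 0.352). Dcp1a was also called higher at 8c (2.06, SE 0.46, adjusted p = 0.00567), but its median was lower in matPlag1KO (43.3 CPM, 0 to 2080) than in WT (77.5, 19.3 to 183). Without the matPlag1KO 8c library libB.F5 Dcp1a had 0.98 (adjusted p = 0.26).

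Of 15 tested poly(A) polymerases, uridylases and poly(A) binding proteins, 7 fell and 1 rose at the first step (median -0.81, beside -1.46 over all genes), and with TMM 4 fell and 7 rose. The gene that rose against spike-in RNA was Pabpc1, the general cytoplasmic poly(A) binding protein (3.52, SE 0.47, adjusted p = 5.41e-10), while Pabpc1l (-4.61), its counterpart in oocytes, Pabpn1l (-6.43), the oocyte relative of the nuclear poly(A) binding protein gene Pabpn1, and Paip1 (-4.78) fell. The second step had 3 higher, with Pabpc1 (2.11) and Paip2 (1.84), and 3 lower, with Papd7 (-3.31) and Paip1 (-1.55), and TMM had 2 higher and 6 lower. The second-step calls of Pabpc1 (adjusted p = 0.0671) and Paip1 (adjusted p = 0.0783) were lost in pool A alone, and that of Paip1 in pool B alone (adjusted p = 0.0758). Paip1, a partner of the poly(A) binding protein, was higher at 2c in embryos labelled matPlag1KO (1.4, SE 0.44, adjusted p = 0.0429, and called in 5 of 9 alternatives), with 171 counts beside 53.

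Of 16 exosome and Ski complex genes 8 fell and 2 rose at the first step (median -1.24, beside -1.46 over all genes), and with TMM 2 fell and 7 rose. Exosc1 (-2.82), Exosc3 (-2.53), Exosc7 (-1.81) and Exosc8 (-1.53) were among those that fell, but Exosc7 (-0.37, adjusted p = 0.29) and Exosc8 (-0.09, adjusted p = 0.834) were not called with TMM. By 8c 9 rose and 2 fell (7 and 6 with TMM), with Exosc4 (4.66), Wdr61 (3.99), Exosc7 (3.02) and Exosc1 (2.15) among the risers. At 2c Exosc7 (-1.25, SE 0.34, adjusted p = 0.0185, 75 counts beside 158 in WT) and the Ski subunit Wdr61 (-2.08, SE 0.58, adjusted p = 0.0225, 13 beside 46) were lower in embryos labelled matPlag1KO, each called in 5 of 9 alternatives. With 1 library left out Wdr61 ran from -3.13 (without the matPlag1KO 2c library libB.D2) to -1.57 (without the WT 2c library libB.C3, adjusted p = 0.114). At 8c Exosc9 was higher (1.53, SE 0.4, adjusted p = 0.0278, and called in 6 of 9 alternatives), with medians of 19.3 (WT) and 67.3 CPM.

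The 7 Argonaute and TNRC6 genes, which join microRNA to the complex, had 3 lower and 0 higher at the first step, with a median of -0.96 beside -1.46 over all genes (also by DESeq2, and 3 in all at an unadjusted p under 0.05), and with TMM 1 lower and 3 higher. Tnrc6b (-1.69), Tnrc6a (-3.54) and Tnrc6c (-2.07) were the 3. Tnrc6b (-0.18, adjusted p = 0.561) and Tnrc6c (-0.32, adjusted p = 0.547) were not called with TMM, nor were Tnrc6a (-1.57, adjusted p = 0.127) and Tnrc6c (-0.77, adjusted p = 0.31) in pool B alone. At the second step Ago4 (5.7), Tnrc6a (3.77) and Ago2 (2.22) rose and 2 fell, with Tnrc6b at -1.59, and TMM had 3 and 3. Ago2 was not called in pool A alone (adjusted p = 0.0526). Between genotypes at 2c 0 were called by edgeR, with 2 at an unadjusted p under 0.05 and 0 by DESeq2.

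The genes with the pattern most like each nuclease gene were found by Pearson r of log2 CPM over the 78 kept libraries, among 6211 genes with a mean of at least 20 CPM. The second value of r is with the 6 group means removed. For Cnot6l they were Fam13c (0.909, then 0.433), AU016765 (0.905, 0.214) and Meis2 (0.903, 0.265), and for Cnot7 Pigf (0.901, 0.453), Bpgm (0.901, 0.422) and Ldhb (0.900, 0.365). For Cnot8 r was lower, at 0.696 for Gm11544 (then 0.264), 0.680 for Tnfaip8l2 (0.199) and 0.671 for Rpia (0.115). For Cnot6, with few counts, the highest were Cmc1 (0.449, 0.429), Ctnna1 (0.435, 0.348) and Ppil2 (0.374, 0.376).

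Some members share bases with a neighbouring gene, and the strand used in counting is not stated. In mm9, Cnot7 (chromosome 8, 41577892 to 41601201, minus strand) overlaps 4065 bases of Vps37a on the plus strand. Vps37a differed between genotypes by 0.32 at 2c (SE 0.41, adjusted p = 0.703) and by 0.63 at 8c (SE 0.5, adjusted p = 0.605), and against spike-in RNA it fell by 3.64 on the log2 scale between WT oocytes and WT 2c embryos. Cnot1 (chromosome 8, 98243351 to 98331362, minus strand) shares 633 bases with 4930513N10Rik, which differed between genotypes by -0.39 at 2c (SE 0.37, adjusted p = 0.57) and 0.42 at 8c, beside -0.63 and 0.61 for Cnot1. Against spike-in RNA in matPlag1KO it changed by -2.41 over the first step and 2.63 over the second, beside -1.92 and 1.95 for Cnot1. Cnot3 (chromosome 7, 3596871 to 3612711, plus strand) shares 1003 bases with Leng1, which was lower at 2c in embryos labelled matPlag1KO (-1.72, SE 0.5, adjusted p = 0.0308) while Cnot3 was not called (0.38, SE 0.36, adjusted p = 0.563). The part of these neighbours in the counts was not tested. The remaining members lie on chromosomes 10 (Cnot2), 6 (Cnot4), 11 (Cnot6 and Cnot8), 5 (Cnot6l), 9 (Cnot10) and 1 (Cnot11).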

How the data were processed

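The authors sequenced transcript 5′ ends tagged with molecular identifiers, with ERCC RNA added to each library, aligned the reads to mm9, counted them with HOMER and deposited the raw counts of 24422 genes and 92 spike-ins. Their methods mention joining the identifiers before mapping, but not whether duplicate reads were merged by this, so intervals and floors cover counting error only. The members and gene lists were chosen with earlier results of these data known. All 6 groups were fitted together in edgeR 4.0.16 (R 4.3.3) with 1 mean per group, and quasi-likelihood p-values were adjusted by Benjamini-Hochberg over 16511 genes (threshold 0.05). Library sizes came from TMM between genotypes and from spike-in totals between stages. Each SE is the absolute log2 value divided by the square root of the F statistic of its edgeR test. The 1 library whose spike-in total was 0 was among the 12 left out. DESeq2 1.42.0 was an alternative. Shares of paralog counts were compared by permutation tests, two-sided, with 100000 resamples or exactly where a group had under 10 libraries (numpy 2.4.6, scipy 1.17.1). Named list genes are up to 4 per list with the lowest adjusted p among those called, at 2c between genotypes and in the WT stage changes, with the 3 genes of highest r for each nuclease gene and the most abundant marker of each list. List genes called at 8c and neighbours that overlap a member were chosen after their values were seen. The code was tested on simulated data. Alternatives varied the library exclusion, gene filter, scaling, test, pool and groups fitted.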

Additional observations from a re-analysis of the deposited data

Results flagged for a closer look

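The genotype difference of Cnot7 was called different between 2c and 8c: the edgeR test of the difference itself gave 1.85 on the log2 scale (SE 0.49, adjusted p = 0.0258, and 0.00433 to 0.406 over 8 alternatives). It was not called in pool A alone (adjusted p = 0.406) or pool B alone (adjusted p = 0.171). With 1 library left out it was called in 45 of 48 fits. Cnot7 itself was called by edgeR at neither stage (adjusted p = 0.282 at 2c and 0.0518 at 8c). Cnot7 lay above the WT median in 7 of 11 embryos labelled matPlag1KO at 2c and below it in 11 of 11 matPlag1KO embryos at 8c.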

How the results depend on the processing

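Over the alternatives 823 of 869 member results kept their side of the threshold without a called value turning, as did 397 of 448 for the genes of other lists and 91 of 98 for shares. The 397 include Samd4 at 2c with no gene filter beyond 1 count, where its edgeR adjusted p is 0.05 after rounding. In DESeq2 Samd4 has no adjusted p at 2c and counts as a lost call. The sign was kept in 795 of the 869, and of the 74 others 65 were called in neither fit. The cause of the changes below was not tested. With TMM in place of spike-in scaling 20 log2 changes of members did not keep their sign, and 11 of them were called by neither scaling. The other 9 were: from MII to 2c in WT Cnot1 1.03, Cnot8 0.83 and Cnot10 1.12; from 2c to 8c in WT Cnot8 -0.74; from MII to 2c in matPlag1KO Cnot1 0.00, Cnot8 1.59 and Cnot10 0.16; from MII to 8c in matPlag1KO Cnot8 0.76 and Cnot10 0.16. The number of members called from 2c to 8c in WT became 7 with TMM (3475 genes higher and 4767 lower of 16511).

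The number called between genotypes at 2c became 1 by DESeq2 (733 higher and 401 lower of 16511 genes) and 2 with median-ratio factors (721 and 273). At 8c it became 1 by DESeq2 (267 and 81), 1 with pool as a term (200 and 91) and 1 with only the 2 groups fitted (235 and 160 of 13182). By DESeq2 it became 1 for the test of 2c against MII (464 and 266). In pool A alone it became 2 from 2c to 8c in matPlag1KO (2556 higher and 1750 lower of 15073 genes), and in pool B alone 4 from MII to 8c in matPlag1KO (3478 and 5594 of 15161). The test of 2c against 8c called 0 in pool A alone (0 of 15073 genes) and 0 in pool B alone (55 higher and 115 lower of 15161). With only the 2 groups at 2c, Cnot11 did not pass the filter and has no value. Some Cnot6l shares have none either, those at matPlag1KO 8c in pool A and others with a minimum of 20 counts, since too few libraries were left.

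The Cnot6l share moved across the threshold at 2c between genotypes with a minimum of 1 count (-9.85 points, permutation test as for all shares, adjusted p = 0.0258) and from MII to 2c in WT in pool A (4.39, adjusted p = 0.0227). It was no longer called from 2c to 8c in WT in pool A (-31.5, adjusted p = 0.0952), from MII to 2c in matPlag1KO with a minimum of 20 counts (-6.71, adjusted p = 0.0698), in pool A (-7.4, adjusted p = 0.231) or in pool B (-7.59, adjusted p = 0.0744), and from 2c to 8c in matPlag1KO in pool B (-27.7, adjusted p = 0.107).

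Leaving out each 2c and 8c library in turn was chosen after seeing the data, and it was not run for MII. It gave 0 to 1 members called between genotypes at 2c, 0 to 1 at 8c and 0 to 1 for the test of 2c against 8c. Cnot7 at 8c was called in 14 of 48 such fits, with adjusted p from 0.031 to 0.118. Its call came with the loss of 1 WT 8c library (libA.E1, libA.E2, libA.F2, libB.E1 and libB.F1), 1 matPlag1KO 8c library (libA.F7 and libB.E7), 1 WT 2c library (libB.C2 and libB.C5) or 1 matPlag1KO 2c library (libA.D6, libA.D8, libB.D4, libB.D6 and libB.D7). Over the same fits the genotype calls of list genes held in 48 of 48 for Exosc7, Nanos2 and Lsm1, 47 for Dcp1a, 46 for Exosc9, 45 for Wdr61, 44 for Zfp36l1, 38 for Paip1, 37 for Angel1, and 35 each for Samd4 and Btg1. Positions such as A1 that hold a WT oocyte in one pool and a matPlag1KO oocyte in the other were tried as a replicate block, and 0 members were called at MII. Over all genes the fit with this block called 639 higher and 153 lower of 12978. The same libraries, genes and pool term without the block, a fit chosen after seeing the data, gave 15 and 19, and 0 members. Over 14 such pairs the correlation of the 2 libraries, with the group means removed, ran from -0.09 to 0.786 and was over 0.1 in 12, and at 2c only 2 pairs exist. The labels do not say that positions pair samples. At 8c no position held both genotypes, so position and genotype cannot be told apart there. At 2c only positions D4 and D5 held both, so position and genotype largely coincide there too. The part of position was not tested at either stage. At 2c the median depth of 148473 (WT) and 163626 counts leaves Cnot6 and Cnot11 at a few counts per group.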
